A study of Mus musculus with 4 samples.

Results

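The Tcl1 family and the AKT kinases were described in irradiated mouse blood progenitors with and without necdin. The set holds 8 genes of the 18194 named on the array: the 6 genes of the Tcl1 family on chromosome 12 (Tcl1, Tcl1b1, Tcl1b2, Tcl1b3, Tcl1b4 and Tcl1b5) and the kinases Akt1 and Akt2. Tcl1b3 was picked on its signal difference between the groups in these same arrays, and the others because they are its relatives or the kinases that Tcl1 proteins bind. Every probe set with 1 gene symbol equal to a member was taken, which gave 11 probe sets for 6 of the 8 genes. Tcl1b2 and Tcl1b5 had no such probe set and were not analysed here. Where a gene had several probe sets, the one of highest mean log2 signal is called its main probe set.

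The RNA came from bone marrow of C57BL/6 mice, sorted for cells without lineage markers that carry Sca-1 and c-Kit (LSK cells), a fraction that holds the blood stem cells and the earliest progenitors. The marrow of the mice had been rebuilt from fetal liver cells, which were necdin null in 1 group and wild type in the other, and all mice had received a sublethal dose of 6.5 Gy. Necdin, the product of the imprinted gene Ndn, restrains cell growth. Each group has 2 arrays. The labels number the fetal liver cells 1 and 2 in each group but do not say whether these came from separate animals. Sex-linked signals, given below, differed between the replicates of each group, so the 2 arrays of a group were not repeats of 1 cell sample. The p-values here reflect the spread of these arrays alone, part of which may be technical. The sources used here give no time after irradiation, no age of the mice and no number of animals behind an array.

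AKT kinases are recruited to the cell membrane when phosphoinositide 3-kinase (PI3K) makes the lipid PIP3, and are then switched on by the kinase PDK1 and the complex mTORC2. Active AKT favours survival, growth and glucose use by phosphorylating proteins such as FoxO factors, GSK3 and TSC2. Tcl1 proteins are small coactivators that bind the lipid-binding domain of AKT and raise its activity. Tcl1 is known from embryonic stem cells, germ cells, immature lymphocytes and lymphoid leukaemias, and the mouse Tcl1b genes from oocytes and early embryos. In blood stem cells the PI3K and AKT pathway is known for its part in the balance between quiescence and cycling.

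The Tcl1b genes are close relatives of each other, which matters for how their probe sets can be read. In the order of RefSeq genes in assembly GRCm38.p6, Tcl1b2, Tcl1b1, Tcl1b5, Tcl1b3, Tcl1b4 and Tcl1 follow each other with no other protein-coding gene between them. The RefSeq promoter table of that build matched 8 of the 8 members by symbol. The 250 bases upstream of the annotated start, all on the plus strand, are shown for the 3 Tcl1b genes that were measured; capitals mark the 2 longest runs, of 25 bases each, that all 5 Tcl1b genes share in this window. The windows are chr12:105190795-105191044 for Tcl1b3, chr12:105159454-105159703 for Tcl1b1 and chr12:105202145-105202394 for Tcl1b4.
Tcl1b3: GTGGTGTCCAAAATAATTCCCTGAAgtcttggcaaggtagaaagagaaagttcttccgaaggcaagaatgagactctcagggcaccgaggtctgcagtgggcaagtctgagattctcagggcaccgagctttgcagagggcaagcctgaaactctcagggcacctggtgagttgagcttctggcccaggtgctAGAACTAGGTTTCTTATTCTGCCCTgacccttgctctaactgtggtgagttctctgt
Tcl1b1: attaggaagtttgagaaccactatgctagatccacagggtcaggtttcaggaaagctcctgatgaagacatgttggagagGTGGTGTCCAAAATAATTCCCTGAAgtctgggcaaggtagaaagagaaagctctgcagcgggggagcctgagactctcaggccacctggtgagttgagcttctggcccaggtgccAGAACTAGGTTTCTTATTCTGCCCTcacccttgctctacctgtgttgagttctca
Tcl1b4: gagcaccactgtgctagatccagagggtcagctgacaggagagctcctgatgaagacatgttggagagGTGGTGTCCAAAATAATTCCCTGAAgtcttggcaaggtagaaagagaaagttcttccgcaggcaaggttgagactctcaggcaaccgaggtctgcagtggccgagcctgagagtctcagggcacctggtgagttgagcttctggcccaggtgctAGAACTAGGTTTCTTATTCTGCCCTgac

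Over the aligned bases of these windows, Tcl1b3 was 96.2% identical to Tcl1b4 (175 of 182 bases) and 92.9% identical to Tcl1b1 (158 of 170 bases). Against Tcl1, which is read from the other strand, the identity was 60.9% (134 of 220 bases). These windows lie before the annotated starts; transcript and probe sequences were not used here, so the overlap of the probes themselves was not measured. Short promoter motifs were searched on both strands in the same window. TATAAA, a core promoter motif, was found at none of the 5 Tcl1b starts and at 12.4% of the 32851 starts in the table, GGGCGG, the motif of Sp1 factors, at none of them and at 32.7%, and the octamer ATGCAAAT at none of them and at 1.6%. CCAAT was found at 1 of the 5, Tcl1b5, and at 33.8% of all starts. Upstream of Tcl1, GGGCGG was found and the other motifs were not.

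Before the members, the arrays themselves: median signals lay between 53.7 and 63.2, and the number of arrays limits the precision. Ndn, which checks the labels, gave signals of 55.4 and 105.0 in necdin null cells and of 252.5 and 255.5 in wild type cells on its main probe set, and 2.73 and 12.1 against 559.4 and 391.8 on probe set 1435382_at. The labels do not say which part of the gene was deleted. Markers of the sorted fraction were present on all arrays, such as Kit (3744.1 to 6617.4) and Cd34 (13407.0 to 15251.5), while Ly6a, which encodes Sca-1, was not analysed here. The sex-linked gene Xist stood apart on 1 array, with 4841.4 and 76.8 in necdin null and 9930.1 and 7181.9 in wild type cells. With limma, fitted across the 12680 genes that passed a filter on low values, 0 genes passed an adjusted p of 0.05 (0% called), and 383 had an unadjusted p under 0.05. Ndn itself did not pass (limma adjusted p = 0.9985 on its main probe set). With all probe sets tested singly, 1435382_at did not pass either (limma adjusted p = 0.2575). A gene that did not pass can thus still differ between the groups. The groups did not overlap for 30.5% of the genes. With the log2 values of each array centred on a common median, the genes with groups apart split into 941 higher and 2942 lower in necdin null cells, in place of 1617 higher and 2250 lower.

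Tcl1b3 was lower on both necdin null arrays than on both wild type arrays. Its only probe set, 1420570_x_at, had signals of 871.9 and 898.5 in necdin null cells and of 4274.4 and 2016.9 in wild type cells. The groups did not overlap: the lower wild type array stood 2.24-fold above the higher necdin null array. The group means were 885.2 ± 18.8 and 3145.6 ± 1596.3 (SD, n = 2 each), a 3.55-fold lower mean signal in necdin null cells and a log2 difference of -1.73. The necdin null arrays lay within 1.03-fold of each other, whereas the wild type arrays were 2.12-fold apart, so most of the spread was among the wild type cells. The size depended on the wild type array used. It was -1.18 without wild type replicate 1 and -2.27 when wild type replicate 2 was left out, and -1.70 and -1.75 without either necdin null array. This contrast chose the gene, so no test is given; 56 of the 12680 genes, Tcl1b3 included, had a difference at least as far below 0, and for 44 of these the groups did not overlap.

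The ending _x_at marks an Affymetrix probe set in which some probes also match other sequences. A signal of 1420570_x_at can thus hold signal from relatives of Tcl1b3. Transcripts of the Tcl1b genes were not compared here, so it is uncertain which of these genes was measured. Tcl1b3 has no other probe set here, so its value could not be set against a more specific one, and without the _x_at, _s_at and _a_at probe sets it had no value at all. Over the 630 genes whose main probe set was an _x_at one, the groups were apart and lower in necdin null cells by at least 2-fold for 9, or 1.43%. Over the 9435 genes whose main probe set had none of the endings _x_at, _s_at and _a_at the share was 168 genes, or 1.78%, and over all genes it was 1.61%. Tcl1b3 itself is among the 9. These shares do not measure shared probes, since a probe set with shared probes need not be lower in necdin null cells.

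**Figure D1:**
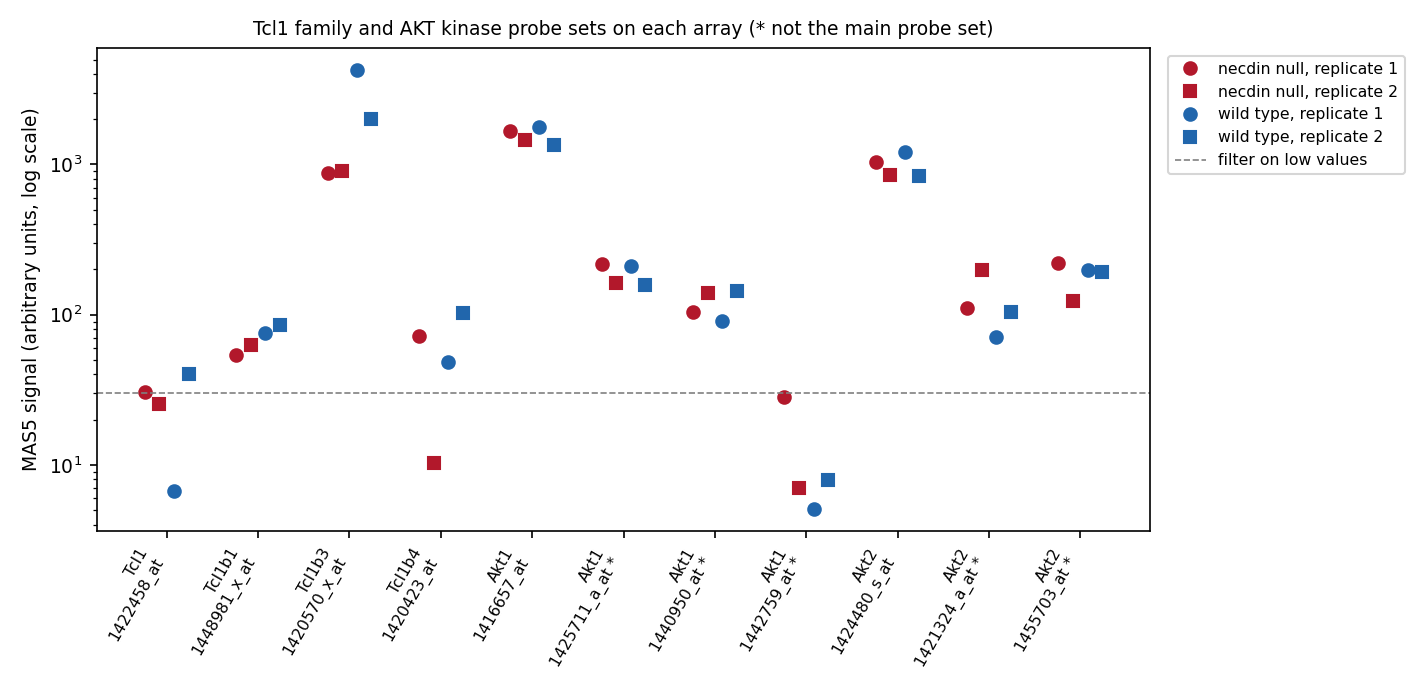
MAS5 signal (log axis, arbitrary units) of the 11 probe sets of the members on each of the 4 arrays, red for necdin null and blue for wild type, circles for replicate 1 and squares for replicate 2; the dashed line is the signal (30.3) at which the filter on low values lies. Tcl1b3 shows the wild type arrays (4274.4 and 2016.9) well above the necdin null arrays (871.9 and 898.5), while the main probe sets of Akt1 and Akt2 have overlapping groups.

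Among the relatives, Tcl1b1 had the same order of groups with a small difference and low signals, and Tcl1b4 and Tcl1 had groups that overlapped. None of those tested passed. Tcl1b1, a Tcl1b gene expressed in oocytes and early embryos, had 53.8 and 62.4 in necdin null cells and 75.8 and 84.8 in wild type cells on 1448981_x_at. Its groups did not overlap, which held for 17.7% of all genes in the lower direction. The log2 difference was -0.44 with a standard error of 0.52 and a 95% interval from -1.63 to 0.74 (limma adjusted p = 0.9985), and it stayed between -0.54 and -0.34 when single arrays were left out. The highest Tcl1b1 signal was on wild type replicate 2, whereas that of Tcl1b3 was on wild type replicate 1. Since 1448981_x_at is also an _x_at probe set, its value is uncertain in the same way.

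Tcl1b4 is the Tcl1b gene whose probe set, 1420423_at, has none of the endings for shared probes. It had 72.2 and 10.3 in necdin null cells and 48.1 and 102.9 in wild type cells, so the groups overlapped. The log2 difference of -1.18 had a standard error of 0.86 and a 95% interval from -3.14 to 0.77 (limma adjusted p = 0.9985). It rested on necdin null replicate 2, where the signal was lowest: without that array it was 0.03. Its wild type order was the opposite of that of Tcl1b3, with replicate 2 above replicate 1.

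Tcl1, the founding member of the family, lay below the filter on low values (a mean log2 value of 4.71, where the filter was 5.09) and was not tested. Its probe set 1422458_at had 30.7 and 25.4 in necdin null cells and 6.68 and 40.3 in wild type cells. The wild type arrays thus held both the lowest and the highest signal. The difference of 0.56 on the log2 scale turned to -0.47 without wild type replicate 1.

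Mtcp1, the X-linked family member outside the set, encodes another AKT-binding coactivator. Its main probe set 1449897_a_at had 1175.6 and 1406.4 in necdin null and 1267.4 and 1184.5 in wild type cells, with overlapping groups and a log2 difference of 0.07 (standard error 0.21, limma adjusted p = 0.9985). The transcript accession behind this probe set is now assigned by RefSeq to Cmc4, a gene that overlaps Mtcp1, so this signal may not be that of Mtcp1. Its other 2 probe sets above the filter had differences of 0.11 and 0.20, and their groups overlapped as well.

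The kinases did not differ beyond the spread between replicates on their main probe sets. Akt1, the broadly expressed AKT kinase, had 1675.3 and 1456.3 in necdin null cells and 1774.2 and 1356.2 in wild type cells on 1416657_at. The wild type arrays enclosed both necdin null arrays. The means were 1565.8 ± 154.9 and 1565.2 ± 295.6 (SD, n = 2 each), with a log2 difference of 0.01, a standard error of 0.22 and a 95% interval from -0.48 to 0.50 (limma adjusted p = 0.9985). Its direction had no stable sign, as median centring gave -0.07. Of the 3 other Akt1 probe sets, 1425711_a_at had 216.4 and 161.3 against 211.5 and 157.4, and 1440950_at had 104.3 and 139.0 against 90.9 and 144.6. The differences were 0.03 and 0.07, so the Akt1 probe sets above the filter all had overlapping groups. The third, 1442759_at, was below the filter, with 28.5 and 6.98 against 5.06 and 7.89.

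Akt2, the AKT kinase best known for insulin-driven glucose uptake, gave different pictures on its 3 probe sets. The main one, 1424480_s_at, had 1042.0 and 848.1 in necdin null cells and 1207.0 and 843.7 in wild type cells. The groups overlapped, and the log2 difference was -0.10 with a standard error of 0.25 and a 95% interval from -0.67 to 0.47 (limma adjusted p = 0.9985). Probe set 1455703_at had 221.0 and 124.1 against 199.2 and 191.6, a difference of -0.23 with overlapping groups. Probe set 1421324_a_at had 110.8 and 199.3 against 70.8 and 103.5, so both necdin null arrays were above both wild type arrays, as for 12.8% of all genes in the higher direction. Its difference of 0.77 had a 95% interval from -0.39 to 1.93 when all probe sets were tested singly (limma adjusted p = 0.9985). The probe sets of Akt2 thus disagreed in sign, and none of them passed.

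**Figure D2:**
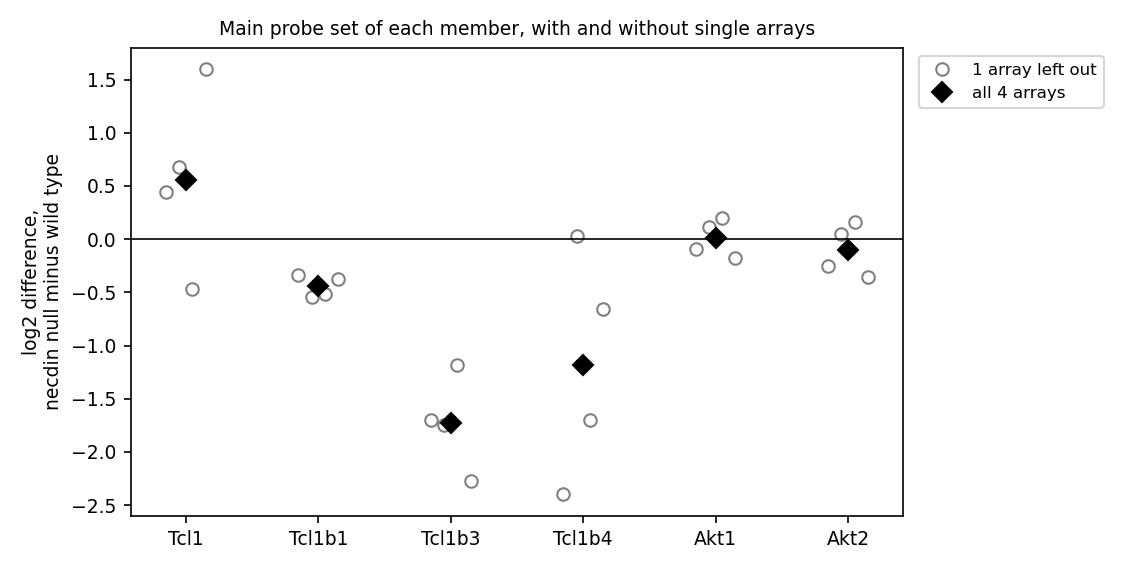
Log2 difference between necdin null and wild type cells for the main probe set of each measured member; diamonds use all 4 arrays and open circles leave out 1 array each. Tcl1b3 stays between -2.27 and -1.18 and Tcl1b1 between -0.54 and -0.34, while the circles of Tcl1, Tcl1b4, Akt1 and Akt2 fall on both sides of 0.

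Of the 5 members that passed the filter, Tcl1b1 and Tcl1b3 had groups apart in the lower direction (17.7% of all genes) and none in the higher (12.8%). The median log2 difference of the 5 was -0.44, where that of all genes was -0.03. Tcl1b3 entered this set through its own difference, so neither value is a result about the family.

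The signals that moved along with Tcl1b3 were looked at next. The 5 genes whose centred log2 values over the 4 arrays lay closest to those of Tcl1b3 were Tlcd4, Gm9054, Slit1, Abca5 and Creb3l3, at Euclidean distances of 0.36 to 0.65 on the log2 scale. Abca5, a lipid transporter of the ABC family, had 75.6 and 108.4 in necdin null cells against 287.4 and 198.5 in wild type cells. Slit1, a guidance ligand of Robo receptors, had 15.6 and 18.1 against 63.4 and 50.7. Creb3l3, a transcription factor of lipid metabolism best known from liver, had 22.5 and 12.5 against 87.7 and 57.7. Apart from Abca5, the necdin null signals of these genes lay below the signal of 30.3 that corresponds to the filter. All but Abca5 thus passed the filter only through the wild type arrays, so they had to be lower in necdin null cells. Tlcd4 has 4 probe sets and Slit1 and Abca5 have 2 each, and only the main one of each was compared. A likeness over 4 arrays is a description, and many genes can come close by the number of genes alone.

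The main probe set of Xist was ordered over the arrays much like Tcl1b3, highest on wild type replicate 1 and next on wild type replicate 2, although its necdin null arrays lay far apart (4841.4 and 76.8) where those of Tcl1b3 were level. A further Xist probe set, 1427262_at, was highest on necdin null replicate 1 (5569.1, against 3820.8 and 4550.9 in wild type cells). The Y-linked gene Eif2s3y had 2273.4 and 2987.1 in necdin null and 32.6 and 1973.8 in wild type cells. The part of these sex-linked differences in the Tcl1b3 result was not tested.

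Other blood cells are a second measure to set beside Tcl1b3, since in such bulk samples fewer cells of a type and less RNA per cell cannot be told apart. B lineage markers were summed because Tcl1 is known from immature B cells. Of 10 markers 9 had a probe set, and their summed signals were 1374 and 1725 in necdin null and 1332 and 2960 in wild type cells. Of the 8 B lineage markers that passed the filter, 7 had negative differences and 1 a positive one. Their median was -0.33, where all genes had -0.03, and none passed the test. The B cell antigen receptor gene Cd79a was below the filter, with 17.1 and 32.6 against 1.90 and 68.7. No B lineage marker had groups apart, where 30.5% of all genes did. The B lineage sum of wild type replicate 1, the array with the highest Tcl1b3 signal, was 1332, close to the 1374 of necdin null replicate 1. Much of each sum came from Cd79b (694.3 and 853.2 against 767.4 and 1231.4). The 9 plasmacytoid dendritic markers summed to 8395 and 14084 against 6707 and 12872. Most of each sum came from Irf8 (3595.0 and 8505.1 against 2495.5 and 7208.7) and Tcf4. Among the 9 markers, Ccr9, a chemokine receptor of gut-homing cells, had 102.6 and 207.8 against 242.5 and 636.4, lower with groups apart. Tcf4, a transcription factor of this lineage, was higher with groups apart, at 3256.1 and 3778.5 against 2630.8 and 3190.0. Siglech, which defines the type, had 55.3 and 43.5 against 60.2 and 47.5. The 9 neutrophil markers summed to 96943 and 199372 against 75759 and 136315. All 9 had positive log2 differences, from 0.26 to 0.85 with a median of 0.45, where all genes had -0.03, and none passed the test. Groups were apart and higher for 2 of the 9, where 12.8% of all genes were. Both encode granule proteases, Elane (947.9 and 1127.0 against 772.6 and 936.9) and Prtn3 (11638.9 and 13630.5 against 10474.1 and 10280.0). The 5 T lineage markers summed to 58 and 153 against 78 and 168, with 4 of the 5 below the filter. The 5 erythroid markers summed to 1582 and 1794 against 1579 and 1756, and the 5 megakaryocyte markers to 5800 and 6732 against 8506 and 5553. The 8 measured markers of LSK cells summed to 48408 and 47559 against 50996 and 43152. None of these sums separated the groups, and the part of these cell types in the Tcl1b3 result was not tested.

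Genes of oocytes and early embryos, the setting in which Tcl1b genes are best known, were mostly near background. Of 28 such genes 24 had a probe set, and 8 passed the filter. Of these 8, none passed the test, 5 had positive and 3 negative differences, and the median was 0.17. The homeobox gene Obox5 had 28.4 and 46.3 in necdin null cells against 78.3 and 90.9 in wild type cells (difference -1.13 on the log2 scale, standard error 0.57). It was the only one of the 8 with groups apart, where 30.5% of all genes had groups apart. Obox6, of the same family, went the other way, at 67.4 and 42.7 against 7.28 and 53.6, and its groups overlapped. The pluripotency genes Pou5f1 and Nanog were below the filter, as was the egg coat gene Zp3.

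The genes next to the Tcl1 locus had differences in both directions. Of the 12 neighbours listed 10 passed the filter, 5 had positive and 5 negative differences, with a median of -0.07, and none passed the test. Groups were apart and lower for 2 of the 10, where 17.7% of all genes were. Snhg10, a non-coding host gene, had 618.8 and 479.7 against 888.1 and 651.6 (difference -0.48 on the log2 scale), and Atg2b, an autophagy lipid transfer protein, had 227.9 and 297.7 against 353.0 and 420.4 (-0.56). Groups were apart and higher for another 2 of the 10, where 12.8% of all genes were. Clmn had 51.2 and 36.5 against 24.2 and 29.7 (0.62) and passed the filter only through its necdin null arrays. Gskip, which encodes a GSK3-binding anchor protein, had 2363.1 and 1905.7 against 1774.3 and 1590.8 (0.34). The differences of these neighbours ranged from -0.56 to 0.62. Tcl1b3 was picked for its large difference, so a comparison of size with its neighbours shows nothing, and a shared change of the locus was not tested.

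Around the kinases, 65 genes in 5 lists cover the path to and from AKT, and 58 of them passed the filter. None passed the test (limma adjusted p of 0.9985 for the lowest), where 0% of all genes did. At an unadjusted p under 0.05 there were 2 of the 58, Inpp4b and Inppl1, against 3.02% of all genes. Negative differences were found for 39 of the 58, or 67.2%, where 54.1% of all genes were lower. Groups were apart and lower for 14 (24.1%, against 17.7% of all genes) and apart and higher for 3 (5.17%, against 12.8%). With median centring these were 16 lower (27.6%, against 23.2%) and 4 higher (6.90%, against 7.42%). The 58 genes had a median log2 difference of -0.10, where all genes had -0.03.

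PI3K subunits, PDK1 and mTORC2, which switch AKT on, had a median of -0.16 over 16 genes. Differences were negative for 12 of the 16, where 54.1% of all genes were lower. Groups were apart and lower for 4 of the 16, where 17.7% of all genes were. Pik3r5, a regulatory subunit of PI3K gamma, had 102.0 and 117.5 in necdin null cells against 134.1 and 244.4 in wild type cells (difference -0.71 on the log2 scale, standard error 0.46). Mtor, the kinase of both mTOR complexes, had 604.6 and 749.9 against 780.8 and 824.6 (-0.25), with 1 of its 2 probe sets above the filter in this direction. Pik3r1, the main regulatory subunit of class I PI3K, had overlapping groups with a difference of 0.44, and Pdpk1, which encodes PDK1, had 0.40. For both genes 1 probe set above the filter was positive, of 4 for Pik3r1 and of 2 for Pdpk1.

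The brakes on AKT had a median of -0.07 over 12 genes, 7 of them negative and 5 positive, and none passed the test. Inpp4b, a phosphatase that removes the lipid PI(3,4)P2, had 72.7 and 95.5 in necdin null cells against 8.90 and 21.6 in wild type cells, with groups apart (difference 2.28 on the log2 scale). Its wild type signals lay below the signal at the filter, which it passed only through the necdin null arrays, so it had to differ and its difference supports nothing. Inppl1, which encodes the PIP3 phosphatase SHIP2, had 92.5 and 76.9 against 156.4 and 223.9, also with groups apart (-1.11, standard error 0.45, limma adjusted p = 0.9985). Inpp5d, which encodes SHIP1, the blood cell form of that enzyme, had 2838.0 and 2973.6 against 3108.1 and 2927.5 (-0.05), and its groups overlapped. Trib3, a stress-induced AKT inhibitor, had 423.1 and 15.4 against 416.6 and 161.6, with 1 low array in the necdin null group. Pik3ip1, an inhibitor of PI3K, had 2083.2 and 1629.8 against 2449.6 and 2137.8 (-0.31), lower with groups apart.

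**Figure D3:**
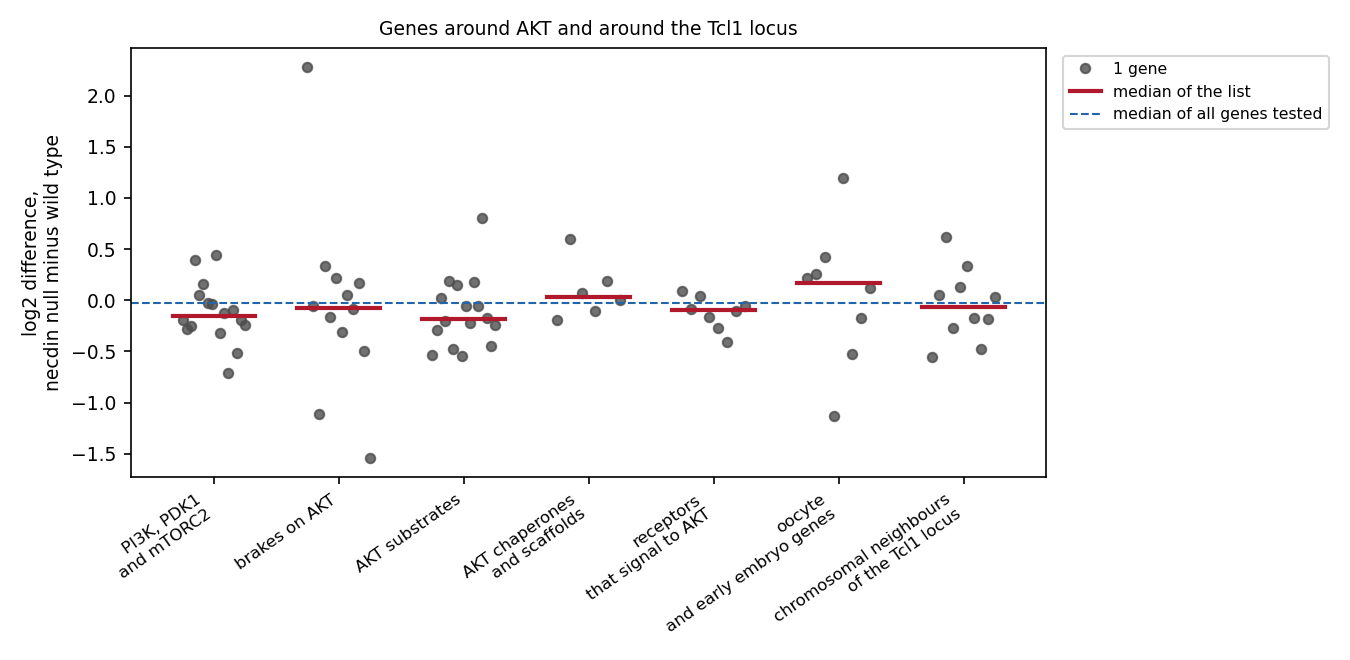
Log2 difference between necdin null and wild type cells for the genes of 7 lists that passed the filter; each dot is 1 gene, the red bar is the median of its list, and the dashed line is the median of all genes tested (-0.03). The list medians lie between -0.19 and 0.17, and Inpp4b (2.28) is the highest dot.

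AKT substrates had a median of -0.19 over 16 genes. Differences were negative for 11 of the 16, where 54.1% of all genes were lower. Groups were apart and lower for 4 of the 16, where 17.7% of all genes were. Foxo1, a factor of quiescence and stress defence that AKT keeps out of the nucleus, had 663.1 and 807.3 in necdin null cells against 1087.1 and 951.4 in wild type cells (difference -0.47 on the log2 scale, standard error 0.23, limma adjusted p = 0.9985), and its 3 probe sets above the filter were all negative. Tbc1d4, a Rab regulator of glucose transporter traffic, had 241.3 and 205.5 against 327.5 and 283.5 (-0.45), with 1 of 2 probe sets above the filter negative. Akt1s1, which encodes the mTORC1 inhibitor PRAS40, had -0.54 with overlapping groups. Pfkfb2, an activator of glycolysis, had 0.80, at 202.6 and 156.4 in necdin null cells against 53.6 and 185.2 in wild type cells, so the groups overlapped.

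Receptors and adaptors that signal to AKT had a median of -0.10 over 8 genes. Insr, the insulin receptor, had 600.1 and 650.8 in necdin null cells against 876.2 and 789.4 in wild type cells, with groups apart (difference -0.41 on the log2 scale, standard error 0.23, limma adjusted p = 0.9985). Il3ra, the interleukin 3 receptor alpha chain, was also apart and lower, at 99.7 and 98.8 against 116.4 and 124.2 (-0.27). Kit, the stem cell factor receptor that defines the sort, had 6048.9 and 3744.1 against 6617.4 and 3975.6; both replicate 2 arrays were below both replicate 1 arrays, and the groups overlapped. Irs1 and Irs2, the adaptors of insulin receptors, were below the filter.

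Chaperones and scaffolds of AKT had a median of 0.03 over 6 genes. Hsp90aa1, the chaperone that keeps AKT stable, had 19842.2 and 29611.9 in necdin null cells against 19645.2 and 22959.4 in wild type cells (difference 0.19 on the log2 scale), and the groups overlapped. Fkbp5, a scaffold that brings the AKT phosphatase PHLPP to AKT, had 1373.3 and 1306.5 against 1427.2 and 1460.8 (-0.11), with groups apart and lower. Appl1, an endosomal adaptor that binds AKT, had 2863.8 and 2498.1 against 3183.4 and 2941.8 (-0.19), also apart and lower, but this direction was shared by just 1 of the 4 Appl1 probe sets that passed the filter. Ccdc88a, which encodes the actin-binding AKT substrate girdin, had 125.7 and 152.0 against 70.1 and 114.5 (0.60), apart and higher, with 2 of 3 probe sets above the filter positive.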

How the data were processed

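Per the submitters' processing notes, the authors deposited MAS5 signals (intensity, linear scale) of unstated version; their mean after trimming 2% at each end was 500.004 on each of the 4 arrays. Of 45101 probe sets, 34958 had 1 gene symbol in the platform annotation, 932 had several and 9211 had none; only the first were named. Values were analysed as log2(signal + 3.80), the pseudocount being the 10th percentile of all values, so differences understate changes of low genes. A gene was tested through its main probe set where its mean log2 value reached 5.09, the 40th percentile on the array, with limma 3.58.1 in R 4.3.3 (lmFit, eBayes with intensity trend, two-sided, Benjamini-Hochberg over all genes, threshold 0.05). Differences are given as necdin null less wild type. With 2 against 2 arrays an exact permutation test cannot give a p below 0.333. Intervals are limma's 95% intervals. The code was tested on simulated data.

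Members and lists were chosen with earlier results of these data known. Named genes were the members, Ndn, up to 4 genes of smallest p per pathway list with Mtcp1 and Inpp5d, and the 5 genes closest to Tcl1b3. Other genes named from the lists (Kit as a marker, Xist, Eif2s3y, Irs1, Irs2, Pou5f1, Nanog, Zp3) and the markers named are given for context and were chosen after their values were seen. The labels do not pair the same-numbered replicates of the groups, so the number was not used as a block in the main fit. Some signals did shift alike in both groups. Neutrophil sums were higher on replicate 2 (199372 in necdin null and 136315 in wild type cells) than on replicate 1 (96943 and 75759). Megakaryocyte sums moved in opposite directions in the groups, from 5800 to 6732 in necdin null and from 8506 to 5553 in wild type cells. Genome coordinates are those of the RefSeq promoter table.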

Additional observations from a re-analysis of the deposited data

How the results depend on the processing

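The count of genes passing limma's threshold, 0, was 3 with the replicate block (Tcl1b3, Gas2l3 and Ddit4), 0 with quantile normalization and the replicate block, an alternative chosen after seeing the data (660 at an unadjusted p under 0.05), and 0 to 4 when single arrays were left out, where the single array left in a group is taken to vary as much as the other group's. It stayed 0 in the other fits. Tcl1b3 was picked from this contrast, so its call with the block is no independent support. The labels do not pair arrays by number. Deviations from group means of same-numbered arrays correlated at 0.11 over 12680 genes. With 2 arrays per group this value is the same for both numbers by construction. The difference of Tcl1b3 lay between -2.27 and -1.18 and that of Tcl1b1 between -0.54 and -0.34 without single arrays; neither has a value without shared-probe sets. Those of Tcl1 (-0.47 to 1.60), Tcl1b4 (-2.40 to 0.03), Akt1 (-0.18 to 0.20) and Akt2 (-0.36 to 0.16) took both signs. Akt1 was also at -0.07 with median centring, and Akt2 at 0.77 on probe set 1421324_a_at. List medians without single arrays were -0.20 to -0.02 for PI3K, PDK1 and mTORC2, -0.32 to 0.04 for brakes, -0.23 to -0.11 for substrates, -0.08 to 0.16 for chaperones and scaffolds, -0.31 to -0.01 for receptors, -0.07 to 0.29 for oocyte and embryo genes and -0.18 to 0.14 for neighbours of the locus. Substrates were at -0.27 with median centring, -0.13 with quantile normalization, with or without the replicate block, and -0.28 without _x_at, _s_at and _a_at probe sets; chaperones and scaffolds were at -0.05 with median centring. Without those probe sets neighbours were at 0.06. Filtering at the 60th percentile put neighbours at -0.18 and oocyte and embryo genes, of which 1 was left, at -0.52. Tcl1b1 and Tcl1b4 fell below that filter. The causes were not tested.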
